A study of Homo sapiens with 9 samples.

Results

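The genes described here are 6 matrix metalloproteinases, MMP1, MMP2, MMP3, MMP10, MMP13 and MMP14, and 3 tissue inhibitors of metalloproteinases, TIMP1, TIMP2 and TIMP3. They were taken by symbol from the deposited expression table, and all 9 were found among its 60606 genes. RNA was sequenced in 3 libraries each of U87, GSCs and Diff cells, 9 libraries in all. U87 cells, a long-established line from a human glioblastoma, served as the parental culture, not irradiated and grown with serum. GSCs are glioblastoma stem cells derived from U87, grown without serum but with EGF, bFGF and B27, and irradiated repeatedly to select radioresistant cells. Diff cells are the differentiated progeny of those irradiated GSCs. They were returned to serum and were picked from clonal colonies. GSCs and Diff cells therefore share the irradiation and selection, U87 and Diff cells share the serum, and all 3 share the U87 origin. In the comparison of GSCs with U87, irradiation and medium cannot be told apart. For Diff cells against U87, irradiation cannot be told apart from the passage through stem cell culture and the picking of colonies. For Diff cells against GSCs, the return to serum and the picking of colonies cannot be told apart.

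Matrix metalloproteinases are zinc-dependent enzymes that cut collagens, laminins, fibronectin and other proteins of the extracellular matrix, and glioma cells are known to use them when they invade brain tissue. They are made as inactive precursors, so a transcript level says how much message is present and not how much active enzyme. The TIMP proteins bind the active site of these enzymes and block it. TIMP2 has a further role, since together with MMP14 at the cell surface it helps to activate the MMP2 precursor.

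The feature shared by the 6 proteases is the catalytic zinc site, which reads histidine, glutamate, a pair of residues, another histidine and, after a short gap, a last histidine. The coding bases of this site are shown because they display how close the members are to each other, which matters for the assignment of reads between them. Each stretch is 33 bases long, was read from the GRCh38 genome with the GENCODE 29 annotation, runs 5′ to 3′ on the coding strand, and has the codons of the 3 histidines and the glutamate in capitals.
MMP1: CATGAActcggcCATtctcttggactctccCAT
MMP3: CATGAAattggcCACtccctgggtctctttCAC
MMP10: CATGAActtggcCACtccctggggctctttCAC
MMP13: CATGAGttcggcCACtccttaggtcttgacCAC
MMP2: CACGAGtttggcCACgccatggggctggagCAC
MMP14: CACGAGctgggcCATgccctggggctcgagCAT
In MMP1 the site lies at chr11:102795549-102795581 on the minus strand, in exon 5 of 10. In MMP3 it lies at chr11:102840535-102840567 on the minus strand, in exon 5 of 10. In MMP10 it lies at chr11:102776718-102776750 on the minus strand, in exon 5 of 10. The MMP13 site, at chr11:102952115-102952147 on the minus strand, is in exon 5 of 11. The MMP2 site, at chr16:55491827-55491859 on the plus strand, is in exon 8 of 13. The MMP14 site, at chr14:22843283-22843315 on the plus strand, is in exon 5 of 10. MMP3 and MMP10 differed at 2 of the 33 bases, whereas MMP1 and MMP2 differed at 15.

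Over whole transcripts, MMP3 and MMP10 had 22 stretches of 75 bases in common, which is 1.07% of those in MMP3 and 1.27% of those in MMP10. All of them lay in 1 coding run of 96 bases. No other pair of the 9 genes had such a stretch in common. TIMP2 had 2.23% of its stretches in common with CEP295NL, a gene on the same strand, and MMP2 had 2.05% in common with the unnamed gene AC007336.3. Reads that lie wholly inside these short parts cannot be told apart by sequence, whereas those that reach beyond them may be. CEP295NL and AC007336.3 also overlap exons of TIMP2 and MMP2 on the same strand.

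The level of each gene is given as TPM, the number of its transcripts in every 1000000 with gene length divided out, so levels can be set beside each other between genes. The 7 members with a mean above 1 TPM over the 9 libraries were tested with limma on the log2(TPM + 1) scale together with every other gene above that level, 22909 in all. A gene is called changed where the adjusted p was below 0.05 and the log2 fold change was above 1 in size. MMP10 and MMP13 did not pass the level filter. A gene could pass the filter through 1 cell line where it was high, as TIMP3 did through U87. A log2(TPM + 1) difference understates the change of genes near 1 TPM, which touches MMP1 in U87 and Diff cells and TIMP3 in GSCs and Diff cells.

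Of the 7 tested members, MMP1, MMP3 and MMP14 rose in GSCs against U87, and TIMP2 and TIMP3 fell. Of all genes tested in that comparison, 9.52% were called higher and 7.53% lower. When Diff cells were compared with U87, MMP3 and MMP14 rose and TIMP3 fell, beside 5.92% of all genes called higher and 6.36% lower. In Diff cells against GSCs, TIMP2 rose and MMP1 fell, beside 2.66% of all genes called higher and 5.36% lower. The share of tested members called in either direction was 71.4%, 42.9% and 28.6% in these 3 comparisons, against 17.1%, 12.3% and 8.01% of all genes. The members were chosen with earlier results of these data known, so these shares are a description and not a test. The median log2 fold change of the 7 members was 0.65, 0.24 and -0.50, and that of all genes tested was 0.02, -0.04 and -0.06. The comparisons share libraries and are not independent of each other. Because these are bulk cultures, fewer cells of a type and less RNA per cell cannot be told apart.

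**Figure D1:**
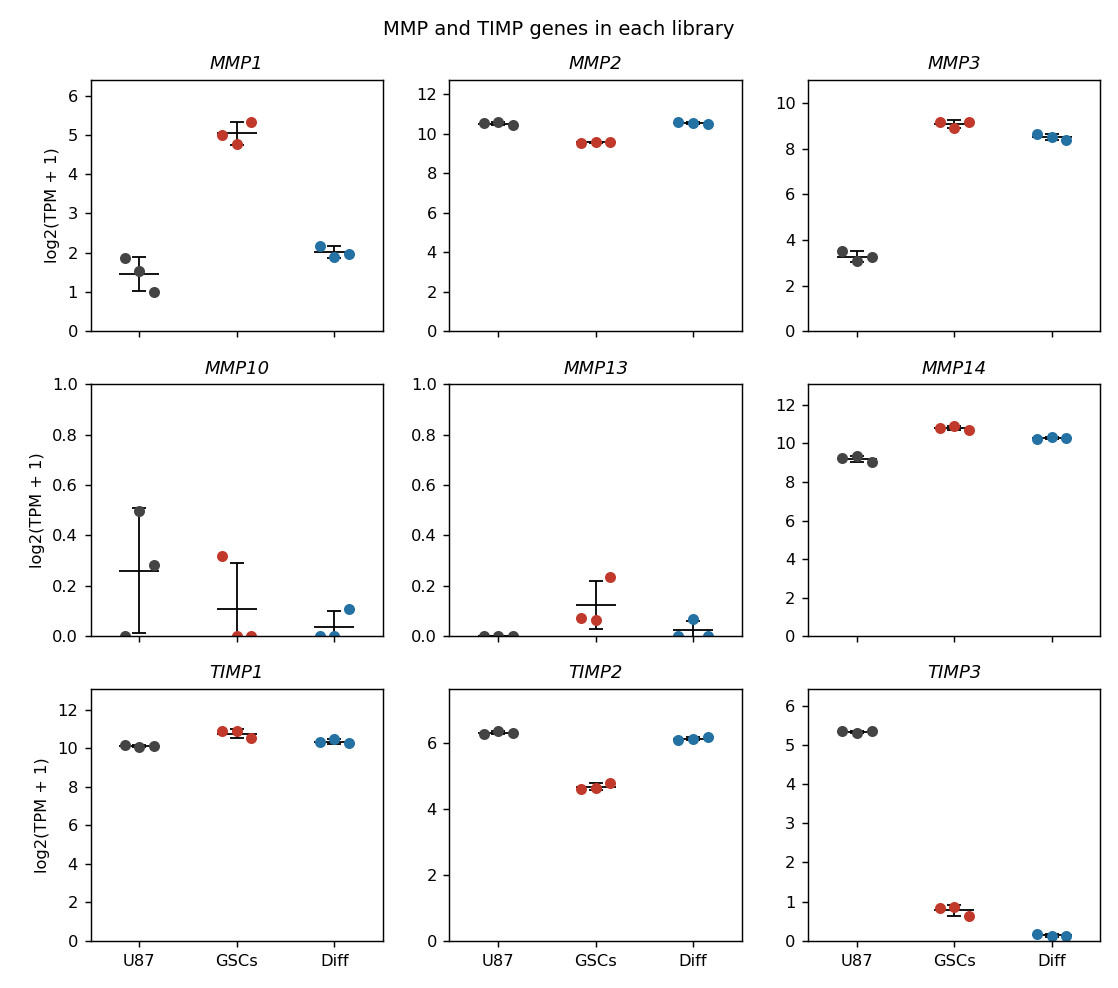
Level of the 9 genes in each library on the log2(TPM + 1) scale, with 1 point per library, a horizontal bar at the mean of the 3 libraries of a cell line and error bars of 1 SD. MMP1 is high in GSCs alone, MMP3 and MMP14 are above U87 in every GSCs and Diff library, and TIMP3 is below 1 in every GSCs and Diff library. The panels for MMP10 and MMP13 have an axis that ends at 1, and every library lies below 0.5.

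MMP1 and MMP13 are the collagenases of the set, which cut the intact triple helix of fibrillar collagen. MMP1 lies at chr11:102789920-102798160 on the minus strand. It was at 2.65, 1.90 and 1.02 TPM in the 3 U87 libraries, at 30.8, 26.5 and 39.4 TPM in GSCs and at 3.52, 2.69 and 2.92 TPM in Diff cells. Every GSCs library was thus far above both other cell lines, and the lowest Diff library lay just above the highest U87 library. The mean was 1.85 ± 0.815 TPM in U87, 32.2 ± 6.58 TPM in GSCs and 3.05 ± 0.427 TPM in Diff cells (SD, n = 3), so GSCs had 17.4 times the level of U87 and 10.6 times that of Diff cells. On the log2(TPM + 1) scale MMP1 rose by 3.56 in GSCs against U87 (SE 0.226, limma adjusted p = 3.06e-06) and fell by 3.02 in Diff cells against GSCs (SE 0.226, limma adjusted p = 2.42e-05). Between Diff cells and U87 the difference of 0.54 did not pass the test (SE 0.226, limma adjusted p = 0.0914). The adjusted p of this difference ranged from 0.0328 to 0.258 under the alternatives.

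MMP13, at chr11:102942995-102955734 on the minus strand, was listed at 0 in all 3 U87 libraries and in Diff libraries 1 and 3. The values above 0 were 0.0513, 0.0462 and 0.176 TPM in GSCs and 0.0482 TPM in Diff library 2. The gene was detected in every GSCs library, yet at levels that were not tested.

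MMP3 and MMP10 are stromelysins, which cut proteoglycans, laminin and fibronectin and can also convert other MMP precursors, among them that of MMP1. MMP3 lies at chr11:102835801-102843803 on the minus strand. It was at 10.5, 7.39 and 8.47 TPM in U87, at 582, 477 and 582 TPM in GSCs and at 402, 369 and 329 TPM in Diff cells. No library of any cell line overlapped with another cell line, and the order was U87, Diff cells, GSCs. The group means of 8.78 ± 1.58, 547 ± 60.9 and 366 ± 36.6 TPM (SD, n = 3) put GSCs at 62.3 times and Diff cells at 41.7 times the level of U87. Among the members called higher, MMP3 had the largest log2(TPM + 1) difference from U87 in both other cell lines. It rose by 5.81 in GSCs (SE 0.131, limma adjusted p = 1.50e-08) and by 5.24 in Diff cells (SE 0.131, limma adjusted p = 3.15e-08). The difference between Diff cells and GSCs, -0.58, was below the fold threshold (SE 0.131, limma adjusted p = 0.0093).

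MMP10 lies beside MMP1 at chr11:102770503-102780628 on the minus strand. It was listed at 0 in 1 U87 library, 2 GSCs libraries and 2 Diff libraries. The values above 0 were 0.41 and 0.216 TPM in U87, 0.248 TPM in GSCs and 0.0784 TPM in Diff cells. Its near relative MMP3 was thus present at 329 to 582 TPM in the GSCs and Diff libraries, in which MMP10 stayed below 0.25 TPM.

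WTAPP1, a pseudogene on the opposite strand, covers 7.61% of the exon bases of MMP1 and 1.56% of those of MMP3. Its mean level was 0.0151 TPM in U87, 0.125 TPM in GSCs and 0.0994 TPM in Diff cells. The libraries were prepared with a directional kit, and whether strand was used in counting is not given in the sources used here.

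MMP2 is gelatinase A, which cuts denatured collagen and the type IV collagen of basement membranes. It lies at chr16:55389700-55506691 on the plus strand. It was at 1490.3, 1532 and 1393 TPM in U87, at 750.1, 757 and 765 TPM in GSCs and at 1570.3, 1493 and 1468 TPM in Diff cells. GSCs were lower than both other cell lines in every library, and the U87 and Diff libraries overlapped. The mean of 757 ± 7.33 TPM in GSCs (SD, n = 3) compared with 1472 ± 71.2 TPM in U87 and 1510 ± 53.4 TPM in Diff cells. On the log2(TPM + 1) scale the difference of GSCs from U87 was -0.96 (SE 0.0553, limma adjusted p = 1.85e-06) and that of Diff cells from GSCs was 0.99 (SE 0.0553, limma adjusted p = 4.81e-06). Both were just inside the fold threshold of 1 and were not called. Under 6 of 19 alternative settings the second passed it, and under quantile normalization both did, at -1.11 and 1.21. Between Diff cells and U87 the difference was 0.04 (SE 0.0553, limma adjusted p = 0.634).

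MMP14, also known as MT1-MMP, is anchored in the cell membrane, where it cuts collagen and activates the MMP2 precursor. It lies at chr14:22836557-22849027 on the plus strand. It was at 611, 641 and 527 TPM in U87, at 1808, 1889 and 1633 TPM in GSCs and at 1220, 1304 and 1234 TPM in Diff cells. The 3 cell lines did not overlap, with U87 lowest and GSCs highest. Mean levels were 593 ± 59.3, 1776 ± 131 and 1252 ± 45.3 TPM (SD, n = 3), which is 3.0 times the U87 level in GSCs and 2.11 times in Diff cells. MMP14 rose by 1.58 on the log2(TPM + 1) scale in GSCs against U87 (SE 0.0861, limma adjusted p = 1.28e-06). It rose by 1.08 in Diff cells against U87 (SE 0.0861, limma adjusted p = 1.78e-05), a value close to the threshold that came to 0.999 without U87 library 3. The difference of Diff cells from GSCs was -0.50 (SE 0.0861, limma adjusted p = 0.0023), and with quantile normalization it was -0.26 with a limma adjusted p of 0.0779.

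**Figure D2:**
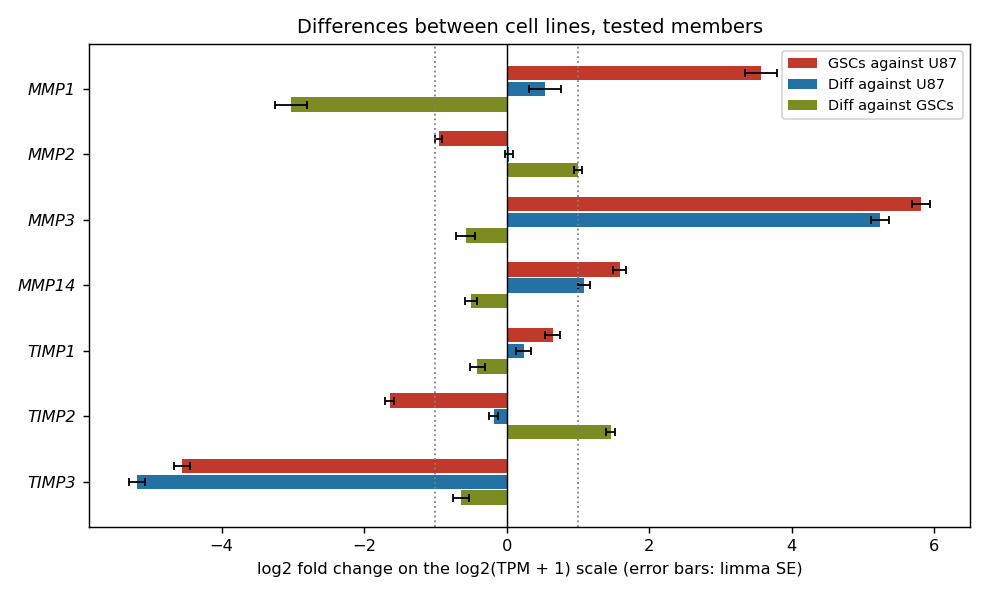
Differences of the 7 tested members in the 3 comparisons, as log2 fold changes on the log2(TPM + 1) scale with error bars of the limma SE. The dotted lines mark the threshold of 1 in either direction. MMP3 reaches 5.81 and 5.24 and TIMP3 -4.55 and -5.19 against U87, while the MMP2 bars for GSCs against U87 and Diff cells against GSCs end just short of the lines.

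TIMP1 is a secreted inhibitor of most MMPs, with little action on MMP14. It lies at chrX:47582313-47586789 on the plus strand, inside an intron of SYN1. It was at 1134, 1084 and 1103 TPM in U87, at 1894, 1892 and 1458 TPM in GSCs and at 1277, 1416 and 1230.1 TPM in Diff cells. The groups did not overlap, and GSCs library 3 was well below the other GSCs libraries and close to the highest Diff library. The difference of GSCs from U87 on the log2(TPM + 1) scale was 0.65 (SE 0.106, limma adjusted p = 0.00098), below the fold threshold. It was 0.24 for Diff cells against U87 (SE 0.106, limma adjusted p = 0.111) and -0.41 for Diff cells against GSCs (SE 0.106, limma adjusted p = 0.0163). The last value depended on the scaling, at -0.16 with a limma adjusted p of 0.251 under quantile normalization. Without GSCs library 3 it was -0.54 with a limma adjusted p of 0.00077. SYN1, the gene around it, was at 1.36, 8.17 and 6.46 TPM in U87, GSCs and Diff cells.

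TIMP2, an inhibitor that also takes part in activating the MMP2 precursor, lies at chr17:78852977-78925387 on the minus strand. It was at 76.3, 81.5 and 78.7 TPM in U87, at 23.2, 24.1 and 26.7 TPM in GSCs and at 67.3, 68.9 and 71.9 TPM in Diff cells. GSCs were low in every library, and the Diff libraries came near to U87 without overlapping it. The mean fell from 78.9 ± 2.61 TPM in U87 to 24.7 ± 1.84 TPM in GSCs and was 69.4 ± 2.35 TPM in Diff cells (SD, n = 3). The U87 level was 3.2 times and the Diff level 2.81 times that of GSCs. On the log2(TPM + 1) scale TIMP2 fell by 1.64 in GSCs against U87 (SE 0.0631, limma adjusted p = 1.90e-07) and rose by 1.46 in Diff cells against GSCs (SE 0.0631, limma adjusted p = 1.66e-06). Between Diff cells and U87 the difference was -0.18 (SE 0.0631, limma adjusted p = 0.0481), and the adjusted p ranged from 0.0107 to 0.151 under the alternatives. CEP295NL covers 3.52% of the TIMP2 exon bases on the same strand, and its mean level was 1.31 TPM in U87, 0.496 TPM in GSCs and 1.34 TPM in Diff cells.

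TIMP3 differs from the other inhibitors in that it binds to the extracellular matrix, and it also inhibits ADAM17 and several ADAMTS proteases. It lies at chr22:32801701-32863043 on the plus strand, inside SYN3. It was at 39.5, 38.5 and 39.7 TPM in U87, at 0.790, 0.825 and 0.543 TPM in GSCs and at 0.126, 0.0891 and 0.09 TPM in Diff cells. The 3 cell lines did not overlap, and the GSCs and Diff libraries were all below 1 TPM. The mean was 39.2 ± 0.628 TPM in U87, 0.719 ± 0.154 TPM in GSCs and 0.102 ± 0.0212 TPM in Diff cells (SD, n = 3), so the U87 level was 54.5 times that of GSCs and 385 times that of Diff cells. These ratios rest on very low values in the denominator. On the log2(TPM + 1) scale TIMP3 fell by 4.55 in GSCs (SE 0.113, limma adjusted p = 2.24e-08) and by 5.19 in Diff cells (SE 0.113, limma adjusted p = 2.45e-08). Between Diff cells and GSCs the difference was -0.64 (SE 0.113, limma adjusted p = 0.00267), and it passed the fold threshold with smaller pseudocounts, at -1.01 with 0.5 and -2.01 with 0.1. TIMP3 passed the level filter through U87 alone, and this last difference lies between values that are all below 1 TPM. SYN3 was at 0.449, 0.132 and 0.199 TPM in U87, GSCs and Diff cells.

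The sequences before the transcription start are shown for TIMP3, MMP14 and MMP10, a member that fell, a member that rose and a member that was near 0. Each is the 250 bases before the start in RefSeq on GRCh38.p14, read 5′ to 3′ on the strand of the gene. Capitals mark the GC box (GGGCGG on either strand), the AP-1 site (TGANTCA on either strand) and the TATA box (TATAAA on the gene strand).
TIMP3: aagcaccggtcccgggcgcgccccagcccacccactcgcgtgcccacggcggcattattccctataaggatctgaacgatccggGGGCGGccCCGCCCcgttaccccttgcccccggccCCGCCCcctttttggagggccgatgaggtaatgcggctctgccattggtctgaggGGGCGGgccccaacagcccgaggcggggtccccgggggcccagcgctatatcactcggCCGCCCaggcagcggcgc
MMP14: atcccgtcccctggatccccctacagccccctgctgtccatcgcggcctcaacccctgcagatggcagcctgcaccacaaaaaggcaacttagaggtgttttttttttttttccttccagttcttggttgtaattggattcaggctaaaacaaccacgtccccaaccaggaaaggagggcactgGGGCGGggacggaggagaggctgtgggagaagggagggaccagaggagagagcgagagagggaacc
MMP10: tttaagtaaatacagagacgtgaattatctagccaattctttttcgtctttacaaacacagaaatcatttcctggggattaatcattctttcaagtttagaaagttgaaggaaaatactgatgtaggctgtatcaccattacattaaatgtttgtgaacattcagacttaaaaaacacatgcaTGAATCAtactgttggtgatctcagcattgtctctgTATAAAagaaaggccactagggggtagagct
The TIMP3 stretch, chr22:32801455-32801704 on the plus strand, held 26 CpG pairs and 5 GC boxes at a GC content of 72.4%. The MMP14 stretch, chr14:22836335-22836584 on the plus strand, held 7 CpG pairs and 1 GC box at 56.8% GC. The MMP10 stretch, chr11:102780629-102780878 on the minus strand, held 2 CpG pairs at 34.4% GC, with an AP-1 site that begins 67 bases before the start and a TATA box that begins 31 bases before it. The base composition thus differed widely between the 3. Of 35116 RefSeq promoters, each taken from 250 bases before to 50 after the start, 45.0% held a GC box, 7.71% an AP-1 site and 7.33% a TATA box. One more motif, PEA3/ETS (AGGAAG on either strand), occurred in 33.6% of them and in the TIMP1 promoter, not in those printed. No promoter of MMP1, MMP2, MMP3, MMP13 or TIMP2 was used here.

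Summed over the 6 proteases, the level was 2114, 2183 and 1929.8 TPM in U87, 3171, 3148 and 3019 TPM in GSCs and 3195, 3168 and 3033 TPM in Diff cells. U87 was lower in every library, and GSCs and Diff cells overlapped. The similar sums of GSCs and Diff cells held the same main genes in different proportions. MMP2 gave 71.0 ± 1.09% of the protease sum in U87, 24.3 ± 0.877% in GSCs and 48.2 ± 1.02% in Diff cells (SD, n = 3). MMP14 gave 28.5 ± 1.09%, 57.0 ± 2.95% and 40.0 ± 1.61%, and was the leading member in GSCs. MMP3 gave 0.425 ± 0.08% in U87, 17.6 ± 2.17% in GSCs and 11.7 ± 0.87% in Diff cells. MMP1, MMP10 and MMP13 made up the small rest.

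The 3 inhibitors together were at 1250.1, 1204 and 1221 TPM in U87, 1918, 1917 and 1485 TPM in GSCs and 1344, 1485 and 1302 TPM in Diff cells. TIMP1 alone gave 90.4 ± 0.358% of this sum in U87, 98.5 ± 0.325% in GSCs and 94.9 ± 0.446% in Diff cells (SD, n = 3), so the fall of TIMP2 and TIMP3 removed little of the total. The ratio of the protease sum to the inhibitor sum was 1.70 ± 0.117 in U87, 1.78 ± 0.222 in GSCs and 2.28 ± 0.129 in Diff cells (SD, n = 3). The ratios of U87 and GSCs overlapped, and every Diff library, at 2.38, 2.13 and 2.33, lay above every library of the other cell lines. GSCs library 3 came near, at 2.03, with the other GSCs libraries at 1.65 and 1.64. These are ratios of transcripts, given as a description without a test. TIMP4 is not in the inhibitor sum, which with it averaged 1268, 1843 and 1476 TPM in U87, GSCs and Diff cells. The ratio with TIMP4 included was not computed. All 9 genes together took up 0.33% of the library in U87, 0.489% in GSCs and 0.451% in Diff cells.

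**Figure D3:**
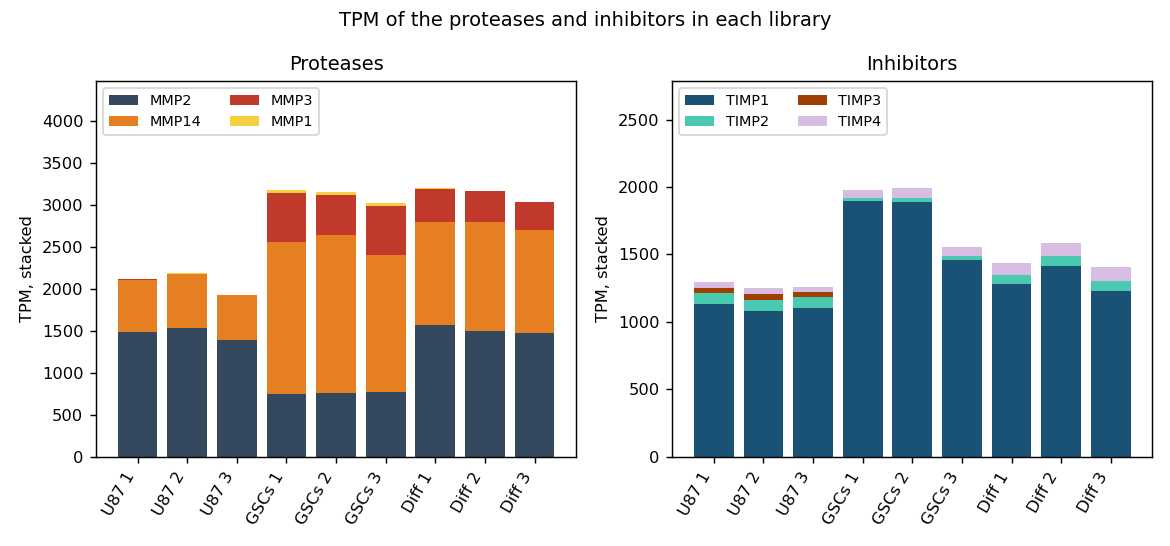
Stacked TPM of the proteases (left) and of the inhibitors (right) in each of the 9 libraries. The left panel stacks MMP2, MMP14, MMP3 and MMP1, and the right panel also stacks TIMP4, which is outside the 9 genes. The dark MMP2 segment is smallest in GSCs, where MMP14 is largest, and TIMP1 fills most of every inhibitor column.

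The list of further genes of both families held 18 names. Of these, 9 passed the level filter. In GSCs against U87, 2 of the 9 rose, namely MMP11 and MMP15, beside the 9.52% of all genes called higher. MMP11, stromelysin-3, was at 0.938, 1.01 and 0.811 TPM in U87, at 9.11, 8.79 and 7.14 TPM in GSCs and at 5.62, 6.79 and 6.18 TPM in Diff cells. It rose by 2.28 on the log2(TPM + 1) scale in GSCs (limma adjusted p = 1.43e-06) and by 1.91 in Diff cells (limma adjusted p = 6.09e-06), both against U87. CHCHD10, on the opposite strand, covers 4.21% of its exon bases and was at 68.2, 104 and 174 TPM in U87, GSCs and Diff cells. The part of CHCHD10 reads in the MMP11 value was not tested.

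MMP15, a membrane-type enzyme like MMP14, was at 1.21, 1.16 and 0.928 TPM in U87, at 5.97, 6.83 and 5.31 TPM in GSCs and at 11.2, 8.85 and 8.34 TPM in Diff cells. It rose by 1.74 in GSCs against U87 (limma adjusted p = 1.42e-05) and by 2.31 in Diff cells against U87 (limma adjusted p = 3.98e-06). Both genes were separated from U87 in every library. TIMP4, the remaining inhibitor of the family, was at 42.6 ± 4.65 TPM in U87, 69.1 ± 5.22 TPM in GSCs and 99.1 ± 6.52 TPM in Diff cells (SD, n = 3). It rose by 1.20 in Diff cells against U87 (limma adjusted p = 1.37e-05), whereas its difference of 0.69 in GSCs was below the fold threshold (limma adjusted p = 0.000292). SYN2, on the opposite strand, covers 10.3% of the TIMP4 exon bases and was at 1.43, 1.75 and 2.29 TPM.

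In Diff cells against U87, 3 of the 9 rose, beside 5.92% of all genes called higher. None of the 9 was called lower against U87, beside 7.53% of all genes in GSCs and 6.36% in Diff cells. In Diff cells against GSCs limma called 0 of the 9, beside 8.01% of all genes. In that last comparison 6 of the 9 had an adjusted p below 0.05 with differences below the fold threshold, such as 0.57 for MMP15 and -0.44 for MMP24. MMP9, the gelatinase related to MMP2, averaged 0.275 TPM in U87, 0.433 TPM in GSCs and 0.0166 TPM in Diff cells and was not tested. MMP8, MMP20, MMP26 and MMP27 were listed at 0 in all 9 libraries.

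**Figure D4:**
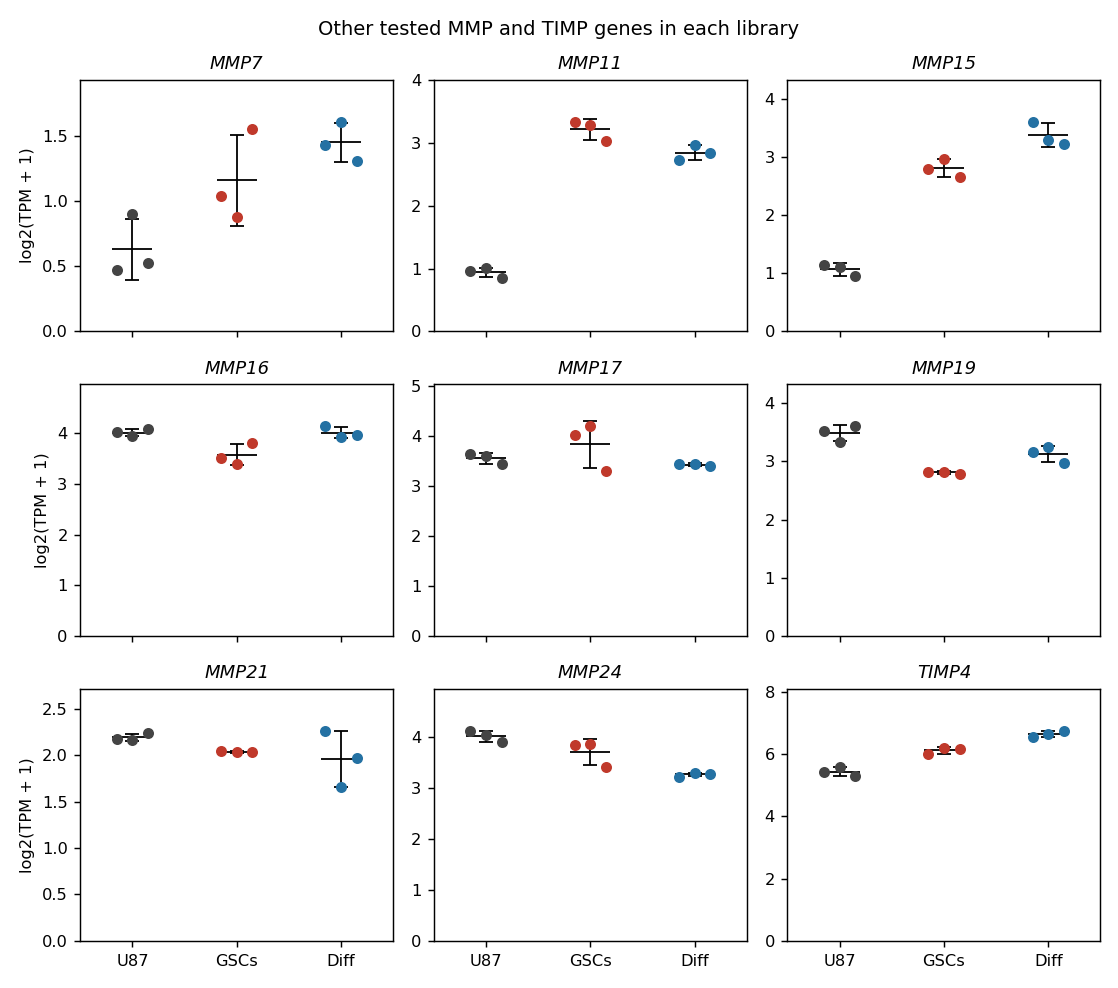
Level of the 9 tested family genes outside the set in each library on the log2(TPM + 1) scale, with 1 point per library, the mean and error bars of 1 SD. MMP11 and MMP15 sit above U87 in every GSCs and Diff library, and TIMP4 is highest in Diff cells.

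MMP precursors are opened by other proteases. The list of 11 genes held such activators, a receptor and BSG, which is not a protease. Of the 11, 7 were tested, BSG among them. In GSCs against U87, 0 rose and 2 fell, which is 28.6% of those tested beside 17.1% of all genes. Against U87, 1 rose and 2 fell in Diff cells, which is 42.9% beside 12.3%, and in Diff cells against GSCs limma called 0, with 2 of the 7 at an adjusted p below 0.05 but under the fold threshold. PLAT, tissue plasminogen activator, fell from 14.0 ± 1.37 TPM in U87 to 3.99 ± 0.362 TPM in GSCs and 4.01 ± 0.482 TPM in Diff cells (SD, n = 3), which is -1.59 and -1.58 on the log2(TPM + 1) scale (limma adjusted p = 8.17e-06 and 1.23e-05). PCSK5, a proprotein convertase, fell by 1.42 and 1.68. PLAU, urokinase, which turns plasminogen into plasmin, rose by 1.00 in Diff cells against U87 (limma adjusted p = 0.000618). FURIN, the convertase that activates MMP14, was at 42.3, 61.9 and 68.0 TPM, with differences from U87 of 0.54 and 0.68 that were not called.

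Among 9 genes that restrain MMP activity apart from the TIMPs, 8 were tested, and 4 rose in GSCs against U87 with 0 lower, beside 9.52% of all genes called higher. TFPI2, a matrix-bound inhibitor of plasmin and several MMPs, averaged 367 ± 70.1 TPM in U87 and 1507 ± 19.7 TPM in GSCs (SD, n = 3) and was at 316 ± 11.9 TPM in Diff cells. Its log2 fold change was 2.05 in GSCs against U87 (limma adjusted p = 2.01e-06) and -2.25 in Diff cells against GSCs (limma adjusted p = 4.31e-06). A2M, the plasma protein alpha-2-macroglobulin that traps proteases, rose by 1.62 in GSCs and fell by 1.93 in Diff cells against GSCs, at 0.269, 2.93 and 0.0257 TPM in U87, GSCs and Diff cells. A2M passed the level filter only through GSCs, where it is high. It is nevertheless counted among the 4 higher in GSCs and the 3 lower in Diff cells against GSCs. LRP1, a receptor that takes up MMPs and their complexes, rose by 1.02 in GSCs and fell by 1.34 in Diff cells against GSCs. SERPINE2 rose by 1.12 in GSCs, and THBS2 rose by 1.31 in Diff cells against U87. RECK, a membrane-anchored inhibitor of MMP2, MMP9 and MMP14, was at 8.40, 11.9 and 10.1 TPM and was not called in any comparison. In Diff cells against U87 the count was 1 higher and 0 lower, a share of 12.5% near the 12.3% of all genes. It was 0 higher and 3 lower in Diff cells against GSCs, a share of 37.5% beside 8.01%.

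Transcription of MMP1, MMP3 and MMP10 is known to respond to AP-1, a dimer of FOS and JUN proteins, often with ETS factors. Of 20 AP-1, ETS and RUNX genes, 19 were tested, and 3 rose in GSCs against U87 with 0 lower. The share called, 15.8%, was near the 17.1% of all genes. The median log2 fold change of the 19 was -0.18, against 0.02 for all genes tested. FOS was at 6.73 ± 1.49 TPM in U87, 31.1 ± 9.82 TPM in GSCs and 4.96 ± 1.18 TPM in Diff cells (SD, n = 3). It rose by 2.02 in GSCs against U87 (limma adjusted p = 0.00022) and fell by 2.40 in Diff cells against GSCs (limma adjusted p = 0.000187). ATF3 rose by 1.86 and fell by 2.01 in the same comparisons, and FOSB rose by 1.02 in GSCs. FOSL1, the most abundant FOS member by a wide margin, was at 1554, 1047 and 1149 TPM, with differences from U87 of -0.57 and -0.44 that were not called. JUN, JUND and FOSL2 were lower in every GSCs library than in U87, at -0.36, -0.49 and -0.32. JUNB, at 0.43, overlapped between GSCs and U87, and none of these differences was called. In Diff cells against U87 0 rose and 2 fell, namely MAFF by 1.43 and ETV5 by 1.10, a share of 10.5% beside 12.3% of all genes. ETV4 fell by 1.06 in Diff cells against GSCs, the third of 3 lower with 0 higher, a share of 15.8% beside 8.01%. These are transcript levels and say nothing of the binding of any factor.

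The matrix proteins that MMPs cut were represented by 18 genes, of which 12 were tested. In GSCs against U87, 0 rose and 4 fell, in Diff cells against U87, 0 rose and 3 fell, and in Diff cells against GSCs, 2 rose and 0 fell. The shares called were 33.3%, 25.0% and 16.7%, beside 17.1%, 12.3% and 8.01% of all genes. COL1A1, a chain of type I collagen and a substrate of MMP1 and MMP14, was at 497 ± 44.3 TPM in U87, 27.7 ± 3.87 TPM in GSCs and 157 ± 5.31 TPM in Diff cells (SD, n = 3). It fell by 4.12 in GSCs (limma adjusted p = 2.18e-08) and by 1.66 in Diff cells (limma adjusted p = 3.83e-06) against U87, and rose by 2.47 in Diff cells against GSCs (limma adjusted p = 1.41e-06). COL1A2, the other chain of type I collagen, was at 246, 162 and 292 TPM in U87, GSCs and Diff cells. Its differences from U87 were -0.60 in GSCs and 0.25 in Diff cells, and it was not called in any comparison. VCAN, the proteoglycan versican, fell by 1.48 in GSCs against U87 and rose by 1.49 in Diff cells against GSCs. TNC, tenascin-C, fell by 1.15 in GSCs and by 1.46 in Diff cells against U87. LAMA3 fell by 1.02 in GSCs and HSPG2, perlecan, by 1.60 in Diff cells. FN1, fibronectin, was at 1556, 971 and 916 TPM, with differences from U87 of -0.68 and -0.76 that were not called.

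MMP1, MMP3, MMP10 and MMP13 are neighbours on the long arm of chromosome 11, so the protein-coding genes around them were set beside them. The span from MMP10 to MMP13 and the 15 genes on each side hold 35 protein-coding genes, of which 9 are MMPs, and 15 of the others were tested. Of these 15, 6 rose and 0 fell in GSCs against U87, and 12 had a value above 0, beside 9.52% of all genes called higher and 7.53% lower. Their median log2 fold change was 0.86, with a range from -0.995 to 2.41, against 0.02 for all genes tested. MMP1 at 3.56 and MMP3 at 5.81 lay outside this range. In Diff cells against U87, 4 rose and 1 fell, 13 were above 0 and the median was 0.56, with a range from -1.14 to 3.55, beside 5.92% of all genes called higher and 6.36% lower. MMP3 at 5.24 was again outside the range, and MMP1 at 0.54 was close to the median.

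CASP4, an inflammatory caspase gene on the side of MMP13, was the neighbour with the largest difference in GSCs against U87, at 5.47, 33.5 and 18.0 TPM in U87, GSCs and Diff cells. It rose by 2.41 in GSCs (limma adjusted p = 1.38e-07) and by 1.56 in Diff cells (limma adjusted p = 2.40e-06). Its neighbours CARD16 and CASP1 rose by 1.81 and 1.35 in GSCs and by 1.20 and 1.00 in Diff cells. GUCY1A2, a subunit of guanylate cyclase, rose by 1.16 in GSCs and by 3.55 in Diff cells. MSANTD4 and KBTBD3 rose by 1.23 and 1.08 in GSCs. BIRC2, an inhibitor of apoptosis on the other side of the cluster, fell by 1.14 in Diff cells. In Diff cells against GSCs the count was 1 higher and 0 lower, beside 2.66% of all genes called higher and 5.36% lower. The median of the 15 tested neighbours was -0.28, against -0.06 for all genes tested. Within the cluster MMP8, MMP20 and MMP27 were listed at 0 and MMP7 was not called, so its genes did not share 1 level. The copy number of this region in the 3 cell lines was not measured here.

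**Figure D5:**
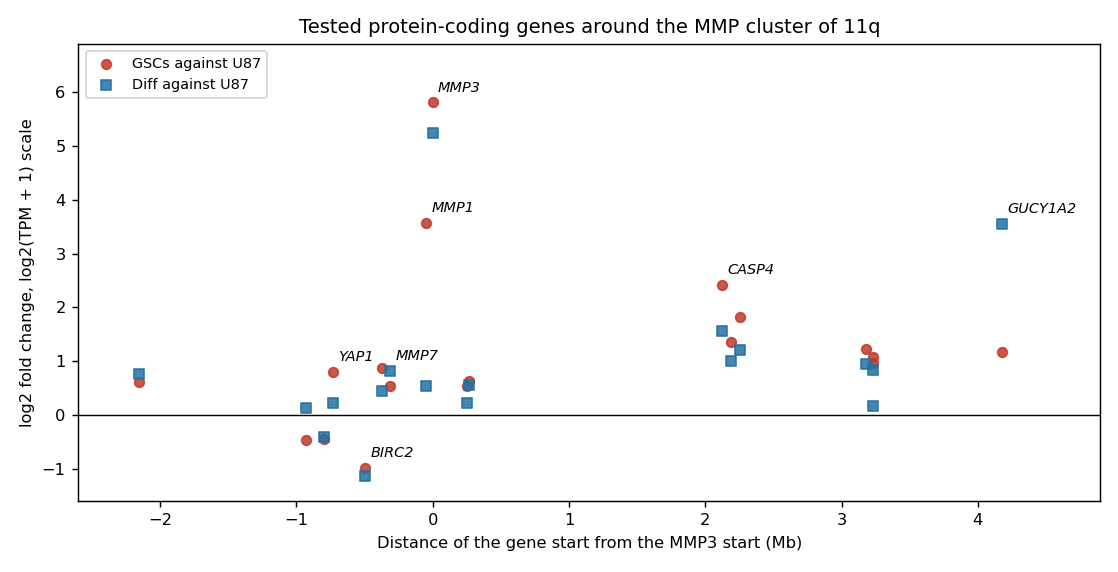
Log2 fold changes on the log2(TPM + 1) scale of the tested protein-coding genes around the MMP cluster, against the distance of each gene's start from the MMP3 start in megabases, for GSCs against U87 (circles) and Diff cells against U87 (squares). MMP3 stands above all other points at 5.81 and 5.24, and MMP1 in GSCs at 3.56 is level with GUCY1A2 in Diff cells at 3.55.

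For each called member, the 3 protein-coding genes outside both families with the most similar pattern were found by Pearson's r over the 9 libraries, among 12055 genes. With 3 cell lines far apart, r is set mostly by the group means, and values near 1 are common. The pattern of MMP1 was most like that of SUCLG2, HSD17B7 and COX15, with r of 0.997, 0.996 and 0.994, all highest in GSCs. The pattern of MMP3 was most like that of CDC14B, OLFML3 and MAT1A, with r of 0.999, 0.998 and 0.998. OLFML3, a secreted matrix-associated protein, was at 40.8, 336 and 260.3 TPM in U87, GSCs and Diff cells. MMP14 was followed most closely by SOD3, FTL and AHNAK2, and FTL, the ferritin light chain, was at 9835, 31262 and 20807 TPM. TIMP2 was followed by NRIP1, PTPRJ and PEA15, and PTPRJ was at 23.6, 0.364 and 15.7 TPM. The nearest patterns to TIMP3 were those of PARP8, ZSWIM5 and ANGPTL4, and ANGPTL4 was at 76.3, 3.19 and 1.93 TPM. The number of genes with r above 0.99 was 18 for MMP1, 84 for MMP3, 49 for MMP14, 25 for TIMP2 and 84 for TIMP3.

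Markers of the labelled cell type were checked beside these results. The summed TPM of 8 glioma and neural stem markers ranged from 2051 to 2113 in U87, from 1531 to 1816 in GSCs and from 903 to 959 in Diff cells, with no marker at 0 in all libraries of a cell line. Most of this sum was VIM, at 1640 ± 18.6, 1214 ± 112 and 616 ± 34.7 TPM, and CD44, at 405 ± 12.2, 427 ± 39.8 and 296 ± 9.43 TPM (SD, n = 3), in U87, GSCs and Diff cells. The stem cell markers SOX2 and PROM1, the gene of CD133, were below 1 TPM on average in each cell line and highest in GSCs. SOX2 averaged 0.0383, 0.879 and 0.153 TPM and PROM1 0.171, 0.507 and 0.0236 TPM in U87, GSCs and Diff cells, and neither was tested. FABP7 rose by 1.77 in GSCs and by 1.16 in Diff cells, both against U87. Other markers of the list were lower in every GSCs library than in U87 without being called. Their differences were -0.86 for GFAP, -0.53 for NES and -0.44 for VIM (limma adjusted p = 0.00121, 0.00047 and 0.00135). OLIG2 and CD44 overlapped between GSCs and U87. NES and VIM fell by 1.23 and 1.41 in Diff cells against U87. The summed TPM of 6 fibroblast-like markers, most of it collagen, ranged from 731 to 864 in U87, from 189 to 213 in GSCs and from 482 to 490 in Diff cells. GSCs were lowest in this sum, as in MMP2 and TIMP2. PDGFRB fell by 2.14 in GSCs and fell by 2.18 in Diff cells, and LUM rose by 3.44 in Diff cells, each against U87. The 4 immune markers summed to between 1.74 and 3.37 TPM in all libraries. The 3 endothelial markers summed to between 16.4 and 18.9 TPM in GSCs and to at most 5.55 TPM elsewhere. Of these, VWF rose by 3.03 in GSCs against U87, and PECAM1 was at 2.77 ± 0.935 TPM in U87 and 6.25 ± 0.868 TPM in GSCs (SD, n = 3), a difference of 0.97 below the fold threshold. The part of these markers in the results was not tested. Correlations of all tested genes were between 0.956 and 0.971 within a cell line and between 0.846 and 0.922 across cell lines, and mitochondrial genes took 25.9% to 31.8% of TPM. The study describes its data in general as biological replicates, but the sample records do not say whether the 3 libraries of a cell line came from separate cultures, so p-values measure the spread between these libraries, which may be technical. TPM keeps no record of depth, so the depth behind each value is unknown and no counting interval is given.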

How the data were processed

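The authors deposited 1 table of log2(TPM + 1) values for 60606 genes and 9 libraries, in which gene length and library total had been divided out. Back-transformed, each library summed to 1000000 TPM, and 18182 genes were at 0 in every library. The submitters' processing notes name FastQC 0.11.9, Trimmomatic 0.39, HISAT2 2.2.1, featureCounts 2.0.5, R 4.2.0 and the GRCh38 genome, while the annotation is not given in the sources used here. The sample records describe removal of ribosomal RNA and directional libraries, and the study's methods describe oligo(dT) selection. TPM does not keep depth, so precision was taken from the spread between libraries.

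For every gene whose TPM averaged over 1, limma 3.58.1 (R 4.3.3; eBayes, trended prior variance) fitted 1 model to all 9 libraries on the log2 values as deposited, with Benjamini-Hochberg adjustment within each comparison over 22909 genes. Called genes had an adjusted p below 0.05 and an absolute log2 fold change over 1. On simulated data, 200 genes among 22909 were raised by about 2 on the log2 scale in GSCs. In GSCs against U87, 180 were recovered with 7 false calls, and 0 were called in the comparison without change (Diff against U87). The simulated noise was independent between libraries and few genes were changed, so these counts give no error rate for the real cultures. Groups came from the sample titles. No pairing of the libraries by replicate number was seen. The members and all gene lists were chosen with earlier results of these data known. Named genes were all members, the neighbours of the MMP cluster and the 3 genes most like each called member. Up to 6 called genes of each list were also named, by absolute log2 fold change. FURIN, BSG, RECK, FOSL1, FOSL2, JUN, JUNB, JUND, FN1, COL1A2, IL1B, MMP9, MMP24 and MMP26 were added after their values were seen. So were the markers SOX2, PROM1, GFAP, OLIG2, CD44 and PECAM1 and genes overlapping a member. Positions and zinc sites came from GENCODE 29, promoters from RefSeq (GRCh38.p14), where 4 members had an entry. Alternatives covered the pseudocount, the filter, the scaling, the libraries in the fit, the variance trend, the replicate block and the omission of each library. Figures were drawn with matplotlib 3.10.9.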

Additional observations from a re-analysis of the deposited data

How the results depend on the processing

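With the filter at a mean TPM over 5, which leaves fewer genes to test, the genes called numbered 2254 for GSCs against U87, 1583 for Diff cells against U87 and 1038 for Diff cells against GSCs, compared with 3908, 2812 and 1836. Leaving out 1 library at a time gave 3797 to 3980, 2755 to 2811 and 1773 to 1907. Counts of called members went from 5 to 6, from 2 to 3 and from 2 to 3 over all alternatives. With the replicate number as a block, 3917, 2810 and 1831 genes and 5, 3 and 2 members were called. Same-numbered libraries of different cell lines had deviations correlated between -0.0416 and 0.0489, and 4 of 9 libraries were closest to one of their own number. No pairing by number was seen, and how the libraries were handled together is not known from this. MMP2 in Diff cells against U87 turned from 0.04 to -0.00135 without U87 library 3, with 0.0671 as the highest value when 1 library was left out, and the cause was not tested. The other members kept their direction in each alternative run. MMP14 in Diff cells against U87 was 0.999 without U87 library 3, just under the threshold, and with no filter its limma adjusted p was 0.000576. Depth was unknown and sets no limit that could be computed.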

Other observations

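Of 28 ADAM and ADAMTS genes, metalloproteinases of related families, 19 were tested with limma. In GSCs against U87, 2 rose and 6 fell, in Diff cells against U87, 1 rose and 5 fell, and in Diff cells against GSCs, 1 rose and 5 fell. The shares called were 42.1%, 31.6% and 31.6%, beside 17.1%, 12.3% and 8.01% of all genes tested. ADAM19 was at 16.3 ± 2.23 TPM in U87, 0.499 ± 0.0787 TPM in GSCs and 12.2 ± 0.342 TPM in Diff cells (SD, n = 3), a fall by 3.52 and a rise by 3.14 on the log2(TPM + 1) scale (limma adjusted p = 7.77e-08 and 7.44e-07). ADAM8 fell by 1.85 in GSCs and by 4.04 in Diff cells against U87, and by 2.19 in Diff cells against GSCs. ADAMTS5, an aggrecanase that TIMP3 inhibits, rose by 2.51 in GSCs and by 1.45 in Diff cells against U87. ADAMTS1 rose by 1.79 in GSCs. ADAMTS18 was at 22.3, 23.0 and 2.01 TPM in U87, GSCs and Diff cells and fell by 2.96 in Diff cells against U87.

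Of 14 cytokine and growth factor genes known to induce MMPs, 10 were tested, and 1, 3 and 2 of them were called in GSCs against U87, Diff cells against U87 and Diff cells against GSCs, beside 17.1%, 12.3% and 8.01% of all genes. The median log2 fold change of the 10 in GSCs against U87 was -0.52, against 0.02 for all genes tested. HGF rose by 1.56 in GSCs against U87 and fell by 1.62 in Diff cells against GSCs. It was at 31.7, 96.0 and 30.4 TPM in U87, GSCs and Diff cells. LIF rose by 2.74 in Diff cells against U87 and by 1.81 against GSCs, at 11.8, 23.2 and 83.6 TPM. IL6 and IL11 fell by 1.15 and 1.50 in Diff cells against U87. IL1B, a classical inducer of MMP1 and MMP3, was at 18.9, 22.3 and 15.4 TPM and was not called in any comparison.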
